A study of Mus musculus with 2 samples.

Results

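The genes described here encode the vacuolar-type proton pump (V-ATPase), its accessory proteins, the cathepsins and the LAMP membrane proteins of the lysosome. They were chosen by symbol: all names beginning Atp6v0, Atp6v1, Atp6ap1 or Atp6ap2, all cathepsin symbols beginning Cts, and Lamp1 and Lamp2, each with at least 1 transcript annotated as protein-coding. The rule matched 53 symbols and left 51 genes of the 55536 annotated ones; the pseudogenes Atp6v0c-ps1 and Atp6v0c-ps2 have no coding transcript and are not counted among them. They comprise 22 V-ATPase subunit genes, 3 accessory genes, 23 cathepsin genes, 2 LAMP genes and Atp6v1fnb, a neighbour of Atp6v1f to which no role was assigned here.

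The study measured total RNA in the left cerebral cortex of female mice of the F1 hybrid strain B6CASTF1/J, at an age of 2 months, with no treatment named in the labels. There is 1 group with 2 libraries, called replicate 1 and replicate 2, each made from 300 ng of RNA with spike-in standards. The labels give both tissue samples the same donor entry but number them separately. They are taken here as separate animals, although no label says so. The spread between them may therefore be technical in part or in whole. With 1 group no comparison between conditions and no p-value can be given.

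The V-ATPase is a rotary machine in the membrane of endosomes, lysosomes, the Golgi apparatus and synaptic vesicles. Its V1 part, on the cytosolic side, splits ATP, and its V0 part, in the membrane, carries protons inwards. In neurons the resulting proton gradient also drives the loading of neurotransmitters into synaptic vesicles. The acid inside lysosomes activates the cathepsins, proteases named by letters that use a cysteine, an aspartate or a serine for catalysis, while the heavily glycosylated LAMP proteins line the lysosomal membrane.

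Levels are given in TPM, a unit of relative transcript abundance that corrects for transcript length and so allows genes to be compared. A gene was called detected at 1 TPM or more in both libraries. The libraries held 31196858 and 32292150 expected counts, of which the 51 genes took 0.434% and 0.419%. The small structural RNAs 7SL and 7SK took 33.2% and 35.0% of all TPM, which lowers the TPM of every other gene by a share that differs between the libraries. Markers of the tissue were present: all 6 neuronal markers were detected, with medians of 506 and 494 TPM, as were all 6 markers each of astrocytes and oligodendrocytes and all 8 of microglia. In a tissue of mixed cells, fewer cells of a type and less RNA per cell cannot be told apart.

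Of the 51 genes, 33 were detected, 18 were not, and 10 of the latter had no expected count in either library. The detected share was 64.7%, against 58.8 percent of the 22028 protein-coding genes of the annotation. The detected genes were abundant: 16 of 33 reached 100 TPM in both libraries, where 6.81 percent of all detected protein-coding genes did. Their median was 98.9 TPM in replicate 1 and 91.1 TPM in replicate 2, and the medians over all detected protein-coding genes were 16.6 and 15.6 TPM.

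Some promoters of these genes hold the 8-letter sequence TCACGTGA, a palindromic E-box of the type bound by the MiT/TFE transcription factors (TFEB, TFE3 and their relatives), which are known as regulators of lysosomal genes. The windows below, 28 bases each from RefSeq promoters on GRCm38.p6, 5′ to 3′ on the strand of the gene, show each match in capitals. They are printed because the genes they belong to include a V1 subunit, V0 subunits and cathepsins whose levels follow.
Ctsd, chr7:142387909-142387936, minus strand: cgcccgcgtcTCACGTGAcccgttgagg
Ctsa, chr2:164833750-164833777, plus strand: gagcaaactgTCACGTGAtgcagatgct
Ctsa, chr2:164833767-164833794, plus strand: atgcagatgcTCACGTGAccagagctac
Atp6v1a, chr16:44139374-44139401, minus strand: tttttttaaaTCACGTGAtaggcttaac
Atp6v0d1, chr8:105566051-105566078, minus strand: cctactgcggTCACGTGAgacgcggtgc
Atp6v0e, chr17:26676388-26676415, plus strand: agcgcgccgaTCACGTGAgcctctgttg

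The promoter table, which holds 300 bases per start site, had entries for 40 of the 51 genes. TCACGTGA was found in 5 of the 40, where 1.12 percent of the 27025 genes in the table hold it in at least 1 promoter. All 5 are detected genes (5 of 25 detected genes with an entry, 0 of 15 not detected). The shorter core CACGTG, which every TCACGTGA contains, was found in 10 of the 40 genes, adding Atp6v0b, Lamp1, Ctsl, Ctsf and Ctsll3, and 8.09 percent of all genes hold it. It was present in 9 of 25 detected genes and 1 of 15 genes not detected. The shares among all detected and all undetected genes were not computed, so whether either sequence goes with detection was not tested. Both sequences are their own reverse complement, so 1 search covers both strands. A match in these windows is a description of the letters and does not show binding. Of the factors themselves, Tfe3 stood at 14.86 and 15.01 TPM, Tfeb at 4.28 and 4.53 TPM and Mitf at 4.06 and 3.49 TPM, and Tfec was not detected (0.09 and 0.01 TPM).

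Among the V-ATPase subunits, 17 of 22 genes were detected, and together the 22 summed to 2699.9 ± 127 TPM (SD, n = 2). Added up over paralogues, 12 of the 13 subunits lay between 90 and 320 TPM, and the proteolipid c of the membrane ring stood above them at 534 ± 23.2 TPM. The highest total was 5.62 times the lowest, that of subunit H. On protein-coding transcripts alone, a setting added after the values were seen, it was 14.8 times the lowest, which was then subunit D at 35.6 ± 4.19 TPM.

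The V1 head is built from the catalytic A subunit and the nucleotide-binding B subunit. Atp6v1a, the single gene for subunit A, had 202 TPM in replicate 1 and 183 TPM in replicate 2. Atp6v1b2, the widely used B subunit gene, had 265 and 234 TPM. Atp6v1b1, the form known from kidney and inner ear, had 0.03 and 0.02 TPM, from 1 count in each library. Practically all B subunit RNA in this cortex was thus assigned to Atp6v1b2. The head genes lay close together, and A was the lower in both libraries.

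The stalk and regulatory subunits join the head to the membrane part. Subunit G is part of the peripheral stalks, and its Atp6v1g2 form, known as the neuronal one, had 252 and 235 TPM. The ubiquitous form Atp6v1g1 had 63.9 and 60.7 TPM, and Atp6v1g3, known from kidney, had no expected count (3 counts would be 0.0821 and 0.0766 TPM). Atp6v1g2 made up 79.6% ± 0.203 of subunit G. Atp6v1e1, for stalk subunit E, had 239.6 and 221.9 TPM, and its testis-known relative Atp6v1e2 had 0.05 and 0.10 TPM. Atp6v1c1, for subunit C, which controls assembly of V1 with V0, had 123.6 and 109.5 TPM. Atp6v1c2 was also detected, at 2.21 and 2.46 TPM, and took 1.98% ± 0.311 of subunit C. The G and C families thus kept a measurable second form, while E did not.

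The rotor subunits D and F, which turn inside the head, each come from 1 gene. Atp6v1d had 121 and 126 TPM over all its transcripts, which are described below. Atp6v1f had 105.1 and 105.6 TPM. Atp6v1h, the regulatory subunit H, had 98.9 and 91.1 TPM and was the lowest subunit total of the pump. Atp6v1fnb, next to Atp6v1f on chromosome 6, had 0.50 and 0.31 TPM and was not detected.

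In the membrane part, Atp6v0c, the proteolipid c that carries the protons, was the highest of all 51 genes, with 551 TPM in replicate 1 and 518 TPM in replicate 2. Atp6v0b, for the related proteolipid c'', had 196 and 184 TPM. Atp6v0d1, for subunit d, which couples the ring to the central stalk, had 139 and 123 TPM. Atp6v0d2, known from osteoclasts and kidney, had no expected count (3 counts would be 0.108 and 0.101 TPM). The ring was thus represented by c well above c'', a difference many times the distance between the libraries.

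Subunit a holds the proton half-channels, and its form is known to follow the membrane in which the pump sits. Atp6v0a1, the form of synaptic vesicles and neurons, had 196 and 189 TPM and made up 86.2% ± 0.604 of the subunit. Atp6v0a2, known from the Golgi apparatus, had 29.4 and 30.5 TPM, or 13.4%. Atp6v0a4, the form of kidney and inner ear, had 0.96 and 0.97 TPM, from 16 and 17 counts, and fell just short of detection. In the quantification from alignments its leading transcript is annotated as a processed transcript, and its coding transcripts had only 0.13 and 0.11 TPM, or 12.4% of the gene. In the quantification directly from reads the gene had 0.52 and 1.48 TPM and the protein-coding Atp6v0a4-201 led. Its transcripts were thus not settled. The remaining form, a3, is encoded by Tcirg1, which the symbol rule does not take in; it had 10.05 and 8.60 TPM, and with it in the sum Atp6v0a1 held 82.7% ± 0.269 and Tcirg1 4.01% ± 0.361.

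Subunit e is a small membrane protein of the complex. Atp6v0e2 had 187 and 176 TPM and Atp6v0e had 19.8 and 19.1 TPM, so that Atp6v0e2 held 90.3% ± 0.126 of the subunit. In each of the 7 families with more than 1 gene the same form led in both libraries, and the leading share differed between them by less than 1 percentage point. The bars of paralogue shares show this, with a visible second form in a, e, G and C only.

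**Figure D1:**
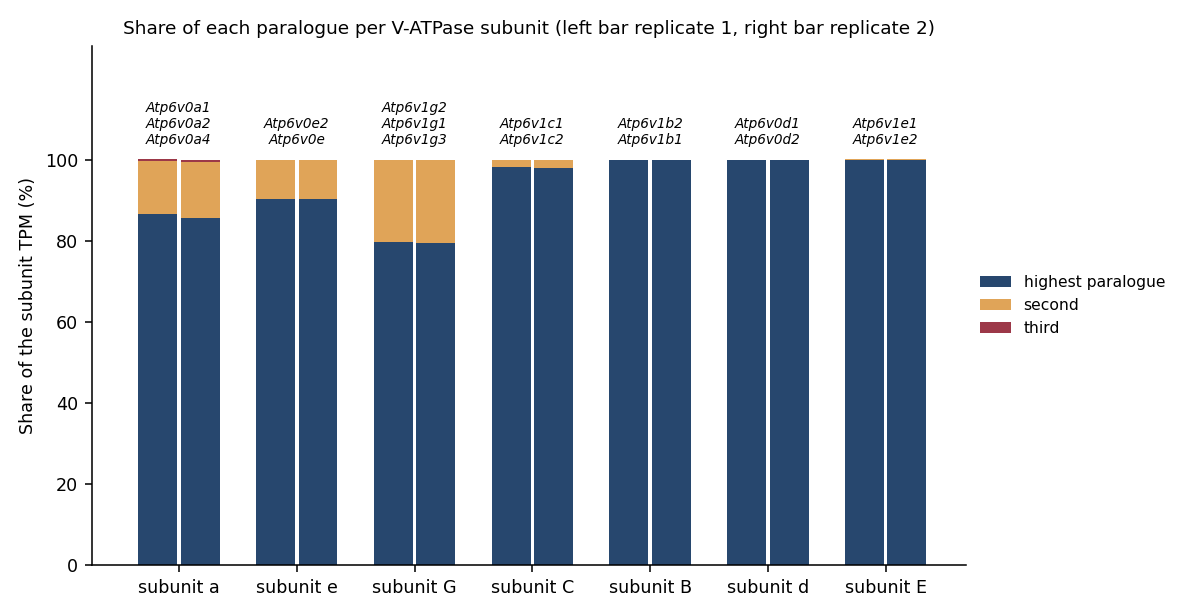
Share of each paralogue in the summed TPM of its V-ATPase subunit, in percent, for the 7 subunits with more than 1 gene chosen by symbol; the left bar of each pair is replicate 1 and the right bar replicate 2, and names above the bars run from the highest form to the lowest. Atp6v0a1, Atp6v0e2, Atp6v1g2 and Atp6v1c1 led with 86.2%, 90.3%, 79.6% and 98.0% as means of both libraries.

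Of the accessory genes, all 3 were detected and summed to 242 ± 16.3 TPM. Atp6ap1, which helps to assemble V0 and sits inside its ring, had 149.7 and 137 TPM. Atp6ap2, also called the prorenin receptor, had 91.2 and 82.0 TPM. Atp6ap1l, a gene related to Atp6ap1, had 12.2 and 11.2 TPM. The order was the same in both libraries.

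**Figure D2:**
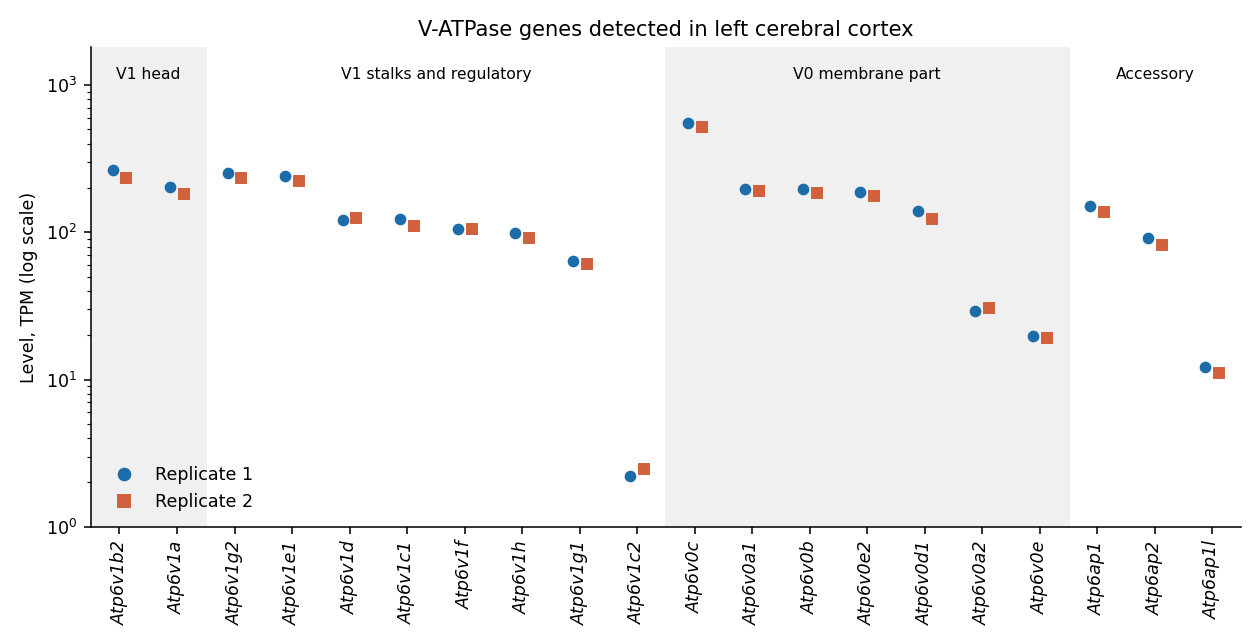
Level in TPM, on a log axis, of the 17 detected subunit genes and 3 accessory genes of the V-ATPase, grouped by role and ordered by mean within each role; circles are replicate 1 and squares replicate 2. Atp6v0c stands highest at 551 and 518 TPM, and Atp6v1c2 lowest at 2.21 and 2.46 TPM.

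Neighbours in the order of levels often could not be separated. In 7 of the 16 adjacent pairs of detected subunit genes the values of the libraries overlapped, among them Atp6v1b2 with Atp6v1g2, Atp6v1a with Atp6v0a1, and Atp6v0b with Atp6v0e2. Atp6v0c, Atp6v1f, Atp6v1h, Atp6v1g1, Atp6v0a2, Atp6v0e and Atp6v1c2 were separated from their neighbours. Such separation describes 2 libraries and carries no test.

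Reads of Atp6v0c are hard to place. The processed pseudogene Atp6v0c-ps2 (mm10, chr6:37806086-37806550) was given 237 and 206 TPM in the gene tables, which is 12.6% and 11.7% of the counts of the pair and 30.1% and 28.4% of its TPM, the pseudogene being the shorter. In the deposited tables quantified directly from reads, here called read-based, the pseudogene stood at 0 and Atp6v0c at 924 and 940 TPM. These values are on a higher scale: all protein-coding genes summed to 802075 TPM there and 479761 TPM in the gene tables (means of both libraries). After both were rescaled to nuclear protein-coding genes, the log2 ratio of read-based over gene-table TPM was 0.06 for Atp6v0c. How many of the reads given to Atp6v0c came from the pseudogene cannot be told from these files, and the level of Atp6v0c is uncertain to that extent. It was above every other V-ATPase gene in both kinds of table.

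The cathepsins summed to 535 ± 21.3 TPM, and 11 of 23 genes were detected. All 3 protease classes were present, with 9 of 10 cysteine cathepsins outside the placental gene cluster, 1 of 2 aspartic and 1 of 2 serine forms. Over all transcripts Ctsb and Ctsd led, and the order of the 11 detected genes was the same in both libraries. The 9 genes of the cluster of cysteine cathepsins known from rodent placenta were not detected. In the gene tables Cts3, Cts6, Cts7, Ctsj, Ctsm, Ctsq, Ctsr and Ctsll3 had no count, and Cts8 had 1 count in replicate 1. A level of 3 counts there would be between 0.0570 TPM, for Cts8 in replicate 2, and 0.166 TPM, for Cts3 in replicate 1. In the read-based tables, on their higher scale, Cts8 had 0.20 and 0.21 TPM, Ctsm had 0.04 and 0 TPM, and the others had 0. These genes resemble each other closely in sequence, so the few reads given to them are uncertain in their place.

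Ctsb, a cysteine protease that cuts both within and at the end of chains, had 199.9 TPM in replicate 1 and 197 TPM in replicate 2. Ctsd, the main aspartic protease of lysosomes, whose loss causes a neuronal ceroid lipofuscinosis, had 137.98 and 129.97 TPM. The libraries did not overlap between these genes. Ctsl, an endopeptidase that also processes hormone precursors, had 53.6 and 51.1 TPM. Ctsf, another cysteine protease linked to neuronal ceroid lipofuscinosis, had 52.0 and 43.5 TPM. Ctsa, the serine carboxypeptidase that protects β-galactosidase and neuraminidase, had 44.2 and 38.3 TPM. The values of Ctsf overlapped with those of both Ctsl and Ctsa, so neither pair has a firm order, while Ctsl lay above Ctsa in both libraries without overlap.

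Ctss, known in brain as a protease of microglia, had 23.3 and 24.3 TPM, within the range of the 8 microglial markers, whose means ran from 4.38 TPM for Trem2 to 30.7 TPM for Csf1r. The 6 endothelial markers spanned a similar range, 3.97 to 31.9 TPM, and the cell source of Ctss was not tested. Ctsz, a carboxypeptidase, had 14.4 and 14.7 TPM. Ctsh, an aminopeptidase, had 11.7 and 8.08 TPM. Over all transcripts these lower members were separated from each other in both libraries. On protein-coding transcripts alone, a setting added after the values were seen, Ctsh had 3.97 and 4.07 TPM. That was below Ctso, at 5.22 and 5.81 TPM, and overlapped with Ctsc, at 4.16 and 3.54 TPM. Ctsf had 22.3 and 21.7 TPM in that setting, below Ctss.

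Ctso, a little studied cysteine cathepsin, had 5.84 and 6.78 TPM. Ctsc, which activates serine proteases of immune cells, had 4.36 and 3.73 TPM. Ctsk, known from osteoclasts, had 2.42 and 1.84 TPM, from 70 and 57 counts, and was the lowest detected cathepsin. The remaining 3 cathepsins outside the placental cluster were not detected. Ctsg, a serine protease of neutrophils and mast cells, had 0 and 0.20 TPM, and none of 6 markers of those cells was detected. Ctsw, known from cytotoxic lymphocytes, had 0.07 and 0.20 TPM, and Ctse, an aspartic protease of stomach and immune cells, had 0.02 and 0.03 TPM. Read-based, Ctsg had 0 and 0.18 TPM, Ctsw 0.14 and 0.20 TPM and Ctse 0.28 and 0.24 TPM.

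**Figure D3:**
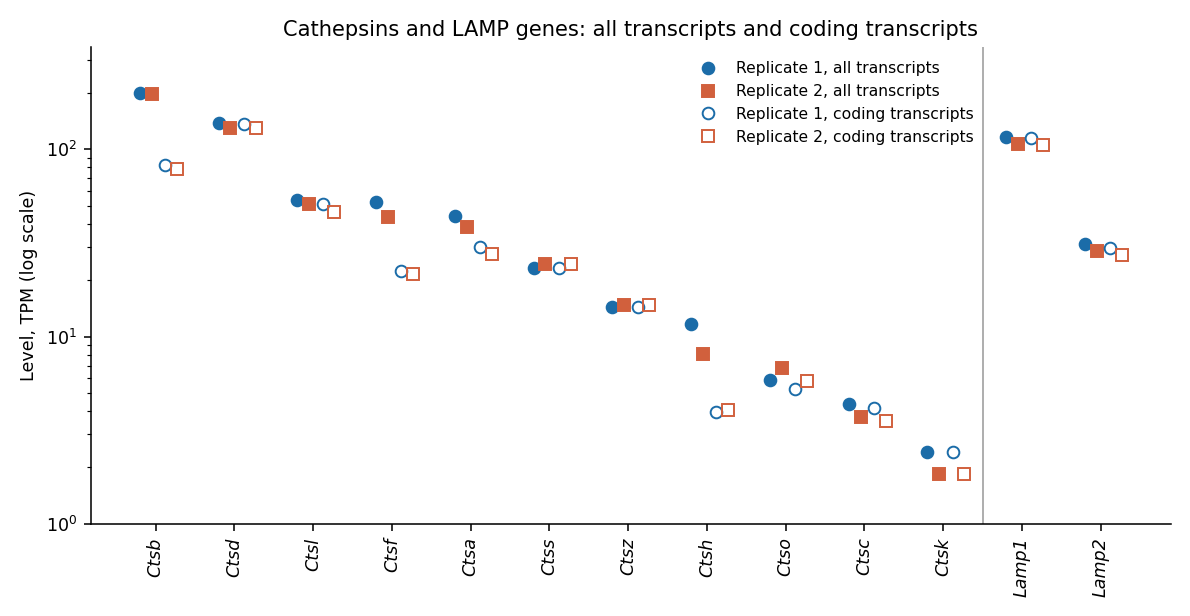
Level in TPM, on a log axis, of the 11 detected cathepsins and of Lamp1 and Lamp2; filled symbols sum all transcripts of a gene and open symbols its protein-coding transcripts alone, with circles for replicate 1 and squares for replicate 2. Ctsb lies above Ctsd when all transcripts are summed (199.9 and 197 TPM) and below it on coding transcripts (82.4 and 78.6 TPM).

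The order of Ctsb and Ctsd turned on which transcripts were counted. On all transcripts the log2 ratio of Ctsb over Ctsd was 0.57 (SD 0.0458, n = 2), and Ctsb made up 37.1% ± 1.09 of cathepsin TPM and Ctsd 25.1% ± 0.0600. On protein-coding transcripts alone, an alternative added after the values were seen, Ctsd had 137 and 129 TPM and Ctsb 82.4 and 78.6 TPM, and the log2 ratio was -0.72. The shares of coding cathepsin TPM were then 36.2% for Ctsd and 21.9% for Ctsb.

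The transcript responsible in the sums is Ctsb-202, annotated as a retained intron. It took 58.5% ± 0.913 of Ctsb TPM but 17.8% of Ctsb counts, because it is short: 801 bases, against 4743 for the coding Ctsb-201. Of its 801 bases, 710 also belong to coding transcripts of Ctsb and 91 do not. Atp6v1d-202 is of the same kind, with 688 of 775 bases shared and 87 outside. It took 68.9% ± 4.19 of Atp6v1d TPM and 31.1% of its counts, and the coding transcripts of Atp6v1d were left with 38.6 and 32.7 TPM. In both, a stretch kept from the intron (90 bases in Ctsb-202, 87 in Atp6v1d-202) lies just before an exon of the coding transcript. They are printed here, from the GENCODE M21 transcripts on mm10, because reads over these letters are what sets such a transcript apart; the capitals mark the AG at the end of the intron, and the last 10 letters are exon.
Ctsb-202, chr14:63135518-63135617, plus strand: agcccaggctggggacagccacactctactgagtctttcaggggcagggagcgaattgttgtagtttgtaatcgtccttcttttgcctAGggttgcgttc
Atp6v1d-202, chr12:78845295-78845391, minus strand: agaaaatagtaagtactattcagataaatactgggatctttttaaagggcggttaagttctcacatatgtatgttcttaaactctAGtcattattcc

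The read-based tables gave Ctsb-202 62.1% and Atp6v1d-202 78.6% of their genes' TPM, so both quantifications put these transcripts first. Whether the RNA exists as the annotated short transcript or as longer RNA with the intron kept was not tested. A gene led by a noncoding transcript was found in 3 of the 33 detected genes (Ctsb, Atp6v1d and Ctsh), where 7.77 percent of 12932 detected protein-coding genes had one. In 5 genes under 60% of TPM lay on coding transcripts: Ctsb, Atp6v1d, Ctsf, Ctsh and Atp6v0a2, where 16.7 percent of 12958 detected protein-coding genes were under that limit. In 23 of 33 genes the share was at least 90%, against 46.6 percent. In Atp6v0a2 the retained-intron transcript Atp6v0a2-204 took 35.8% ± 1.17 of TPM and 5.83% and 6.18% of counts in the libraries, and only 10 of its 663 bases lie outside coding transcripts. On coding transcripts alone Atp6v0a1 held 90.4% ± 0.386 of subunit a.

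Over all detected members, protein-coding transcripts took 89.2% ± 0.310 of TPM and retained-intron transcripts 8.89% ± 0.445. Over all genes compared the same shares were 83.6% and 8.62%. On counts, which are not divided by length, retained introns took 3.86% of the members and 4.46% of all genes.

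**Figure D4:**
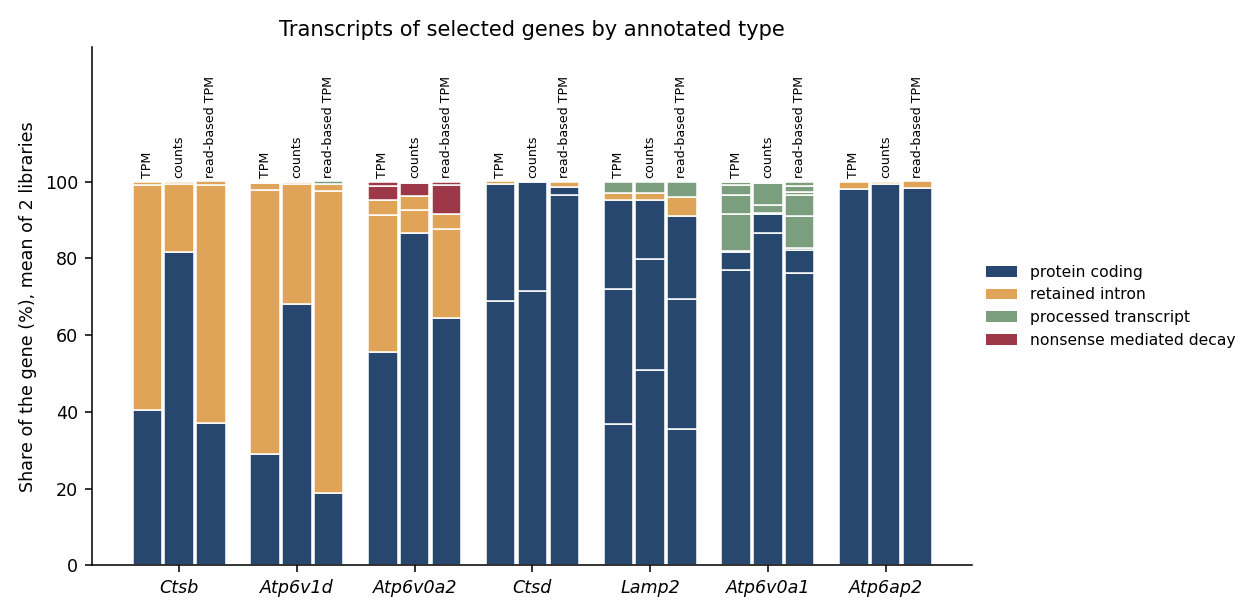
Share of each transcript in its gene, in percent as the mean of both libraries, for 7 genes; the bars of a gene give alignment-based TPM, alignment-based counts and read-based TPM, white lines part the transcripts, and colours give their annotated type. Retained-intron transcripts take 58.5% of Ctsb and 68.9% of Atp6v1d by TPM through 1 transcript each and far less by counts, while Atp6ap2-201 takes 98.1% of Atp6ap2.

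The LAMP genes summed to 141 ± 7.67 TPM. Lamp1 had 116 and 107 TPM and Lamp2 31.0 and 28.6 TPM, so that Lamp1 held 78.9% ± 0.0497. Lamp2 makes alternative last coding exons, which encode the membrane span and the short cytosolic tail. Lamp2-201 carries the tail of LAMP-2A, the receptor of chaperone-mediated autophagy, Lamp2-202 that of LAMP-2B and Lamp2-203 that of LAMP-2C. The last coding exons, without the stop codon, follow from the GENCODE M21 transcripts on mm10; the 30 bases in capitals encode the end of the tail.
Lamp2-201, chrX:38405435-38405571, minus strand: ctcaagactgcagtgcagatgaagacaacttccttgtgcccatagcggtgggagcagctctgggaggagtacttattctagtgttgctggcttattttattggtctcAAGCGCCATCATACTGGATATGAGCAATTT
Lamp2-202, chrX:38421715-38421851, minus strand: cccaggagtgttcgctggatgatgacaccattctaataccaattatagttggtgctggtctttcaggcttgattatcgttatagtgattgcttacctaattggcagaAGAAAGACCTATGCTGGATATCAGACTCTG
Lamp2-203, chrX:38402142-38402281, minus strand: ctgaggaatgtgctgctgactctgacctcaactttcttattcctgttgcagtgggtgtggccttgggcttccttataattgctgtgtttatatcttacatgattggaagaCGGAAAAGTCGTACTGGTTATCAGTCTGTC

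Aligned at their ends without gaps over 137 bases, the exons were between 51.1% and 53.3% identical, so reads inside them can be told apart. Lamp2-202 took 36.8% ± 0.546 of Lamp2 TPM, Lamp2-203 35.2% ± 1.52 and Lamp2-201 23.2% ± 2.19. The first of these had 36.4% and 37.2% in the libraries and the second 34.2% and 36.3%, so they were near each other, while Lamp2-201, at 24.8% and 21.7%, was the lowest in both. The read-based shares were 35.6%, 33.7% and 21.7% in the same order.

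Transcript shares of other genes were less settled. The leading transcript differed between the quantifications in 4 of the 33 genes, Ctsl, Ctss, Ctsh and Atp6v1c2, where 22.6 percent of all detected protein-coding genes differed. In Ctsl the coding Ctsl-201 led with 44.8% in the alignment-based tables and Ctsl-203 with 51.8% in the read-based ones. In Ctss the coding transcripts Ctss-202 and Ctss-201, of equal length, took 86.3% and 13.7% by alignment and 41.7% and 58.3% by reads. In Ctsh the alignment-based tables gave 38.7% ± 10.1 to Ctsh-202, annotated for nonsense-mediated decay, and the read-based ones gave it 0 and Ctsh-201 66.3%. Atp6v1c2 rested on 61 and 60 counts in all, which leave its transcripts unresolved: Atp6v1c2-201 took 79.6% in replicate 1 and 38.6% in replicate 2. In Ctsd both coding transcripts, Ctsd-202 and Ctsd-201, differed in share (69.0% and 30.3% by alignment, 96.5% and 2.20% by reads) while the same one led. Atp6v0a1-201 led its gene with 77.0% ± 1.27.

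At the level of genes the quantifications differed less. After both were rescaled to the sum of nuclear protein-coding genes, the median log2 ratio of read-based over alignment-based TPM was -0.10 over the 33 genes, from -0.62 for Ctsh to 0.48 for Atp6v1c2. Only Ctsh lay beyond 0.5 in either direction, 1 of 33, against 7.97% of 12932 genes.

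Between the libraries no member was called different. Counts were scaled by TMM, an edgeR method that sets library sizes from the bulk of genes, and a gene was called when the 95% interval of its log2 ratio, from counting error alone, lay wholly beyond 2-fold. Of 34 members whose counts averaged 10 or more, 0 were called, where 0.307 percent of 18562 genes were; with a limit of 1.5-fold it was again 0, against 0.479 percent. The members' log2 ratios of replicate 2 over replicate 1 ran from -0.32 in Ctsk to 0.24 in Ctso, with a median of -0.03, and 24 of 34 were below 0. Over all protein-coding genes with that count, 50.1% were below 0.

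Small shifts did pass counting error in some members. The interval lay wholly below 0 in 6 of 34 genes, where 6.89 percent of all genes did so: Atp6v1b2 at -0.09, Atp6v0d1, Atp6v1c1 and Atp6ap2 at -0.08 each, Atp6v1e1 at -0.05 and Atp6v1a at -0.04. It lay wholly above 0 in 3 genes, Atp6v0a1 at 0.04, Atp6v0a2 at 0.12 and Ctso at 0.24, where 8.17 percent of all genes did so. Abundant genes have narrow intervals, so these shares depend on counts as well as on differences. The spread between the libraries over all genes corresponds to an SD of 0.08 for a log2 ratio. That value leaves out counting error. The intervals of Atp6v0a2 (0.03 to 0.20) and Ctso (0.04 to 0.44), which had the highest ratios of these 9 genes, both reach below 0.08. Ctso, with 371 and 445 counts, had the ratio farthest from 0 of the 9.

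**Figure D5:**
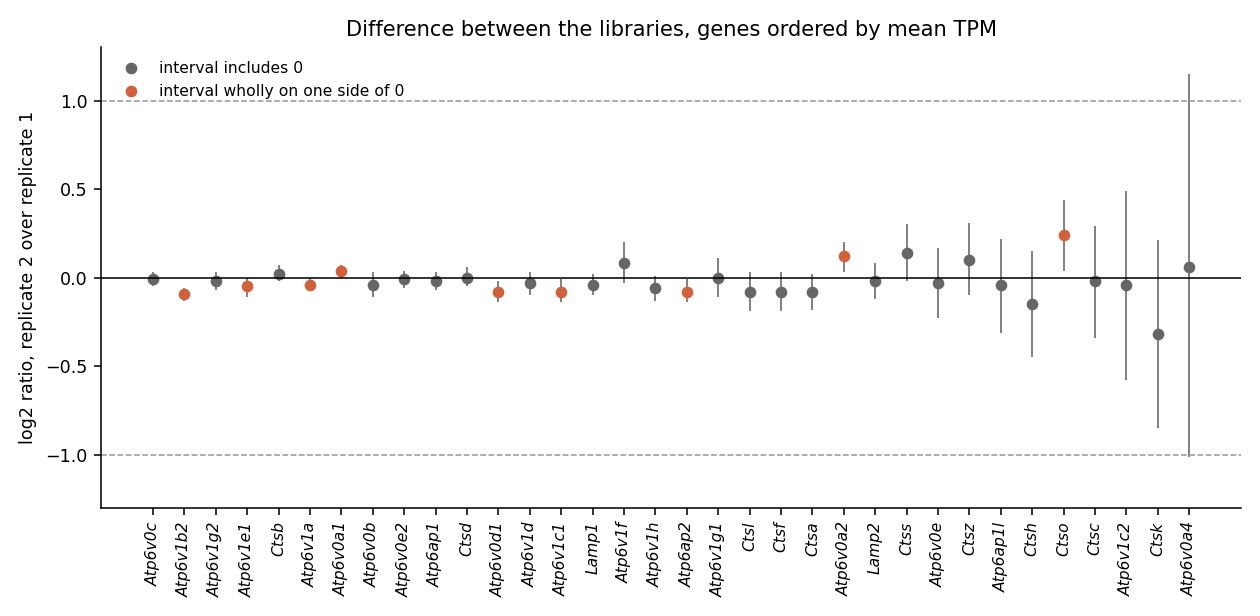
Log2 ratio of replicate 2 over replicate 1 for the 34 genes whose counts averaged 10 or more, ordered by mean TPM, with 95% counting intervals as vertical lines; dashed lines mark 2-fold in each direction. Orange points are the 9 genes whose interval lies wholly on one side of 0, all of them between -0.09 and 0.24.

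Some marker genes differed between the libraries in both directions. Over all genes 6.89 percent of intervals lay wholly below 0 and 8.17 percent wholly above, and abundant genes have narrow intervals. The intervals rest on TMM-scaled counts and the sums are in TPM, so they can move in different directions. The fibroblast and meninges list had 3 of 6 intervals below 0 and 1 above (summed TPM 86.7 and 64.1), with Igf2 at -0.52. The astrocyte list had 3 of 6 above 0 (676 and 662). The oligodendrocyte list had 5 of 6 intervals above 0 (summed TPM 681 and 731), and the blood list had 3 above 0 among the 5 genes with enough counts (345 and 438). The choroid plexus list had 1 interval above 0 among the 4 genes with enough counts (9.07 and 38.0). It was that of Ttr, which had 6.12 and 34.3 TPM, and the other intervals included 0. The microglia list had 1 of 8 above 0 (137 and 136). Of the 6 neuronal markers 2 had intervals above 0 (3498 and 3348), and among 6 endothelial markers every interval included 0 (95.2 and 92.4). The part of any of these in the members' ratios was not tested.

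Other genes of the lysosome were present beside them. All 17 V-ATPase partners and assembly factors were detected, from Oxr1 at 116 TPM and Rnasek at 106 TPM (means of both libraries, as for the genes below unless both are given) and Rogdi (99.04 and 90.97 TPM) down to Slc11a1 at 1.88 TPM, with list medians of 24.6 and 22.9 TPM. Oxr1 belongs to a family of V-ATPase regulators, and Rogdi, with Dmxl2 and Wdr7, forms the complex that reassembles the pump. All 32 other hydrolases and activators were detected, led by Psap, the precursor of the saposins, at 665 TPM, Ids at 151 TPM and Gaa at 117 TPM, with Sgsh and Dnase2a lowest at 2.10 TPM each and list medians of 15.04 and 14.47 TPM. The sum of that list, 1473 and 1403 TPM, can be set beside the 549.8 and 519.6 TPM of the cathepsins.

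All 20 further membrane proteins and transporters were detected, with Lamp5, a LAMP relative known from neurons, at 119 TPM, Laptm4a at 75.1 TPM, Laptm4b at 41.2 TPM and the channel Tpcn2, at 2.75 TPM, lowest around medians of 17.9 and 17.5 TPM. Among 10 genes for the sorting of lysosomal enzymes, Lrp1 had 153 TPM, Sort1 136 TPM, Gga3 37.2 TPM and Nagpa, the lowest, 6.15 TPM. List medians were 31.5 and 30.5 TPM. Of 6 genes for inhibitors of cathepsins and related proteases, 5 were detected. Cst3, cystatin C, a secreted inhibitor of cysteine cathepsins, had 833 and 808 TPM, above the sum of all cathepsins in both libraries. Cstb followed at 18.1 TPM and Serpinb6a at 14.0 TPM, and Cst7 was not detected (0.06 and 0 TPM). Of 15 genes of transcription and nutrient sensing at the lysosome 14 were detected, led by Rraga at 59.0 TPM, Lamtor2 at 42.5 TPM and Rragd at 41.6 TPM, with list medians of 25.3 and 23.6 TPM. In these lists 0 genes passed the 2-fold limit between the libraries, where 0.307 percent of all genes did.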

How the data were processed

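Total RNA from left cerebral cortex was measured in 2 libraries of 1 group. Per the lists of files deposited with each library, the tables use mm10 and GENCODE M21. The authors deposited expected counts and TPM per gene and transcript from alignments, and estimated counts and TPM per transcript from reads, with software not given in the sources used here. The deposited TPM sums over all features, and CAST alleles were quantified on a C57BL/6J reference.

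Genes were chosen by symbol, and members, roles and lists were chosen with earlier results of these data known. Named genes are all members and, of each list, the 3 highest and the lowest by mean TPM; the MiT/TFE genes, Tcirg1, Dmxl2, Wdr7, Trem2, Csf1r, Igf2 and Ttr were named after their values were seen. Expected counts were rounded and scaled with TMM in edgeR 4.0.16 (replicate 2 over replicate 1: 1.01475). Ratios used a prior count of 0.5 and exact Clopper-Pearson 95% intervals from the counts, which cover counting error only, since PCR copies cannot be told from separate molecules here. Floors are 3 counts. Read-based transcripts were added up per gene. The edgeR biological coefficient of variation was 4.08% over 18562 genes, and a chi-square over 12843 genes was 65202 on 12842 degrees of freedom, so the libraries differ beyond sampling noise.

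The interval rule was tried on simulated data of 18552 genes, drawn with a biological coefficient of variation of 5% in every gene. At the 2-fold limit it called 0 of 18352 unchanged genes, 6 of 50 changed 2-fold, 47 of 50 changed 3-fold and 50 of 50 changed 4-fold. Because the simulated spread was the same for every gene, the 0 does not give the rate of false calls in these libraries. The changed genes were drawn only from genes with higher counts than the rule requires, so their numbers do not cover members with few counts. Examples are Ctsk (70 and 57 counts), Atp6v1c2 (61 and 60) and Atp6v0a4 (16 and 17). Promoters came from RefSeq (GRCm38.p6). Python 3.11.15, pandas 2.3.3, scipy 1.17.1 and R 4.3.3 were used, with DESeq2 1.42.0 for an alternative scaling. Alternatives were other thresholds, scalings, quantifications, coding transcripts alone and each library left out.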

Additional observations from a re-analysis of the deposited data

How the results depend on the processing

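The number of detected genes stayed between 32 and 34 under every alternative, and no member was called under any scaling, without the filter, at 1.5-fold or with read-based counts. TPM sums moved with the denominator. Rescaled to nuclear protein-coding genes, the V-ATPase subunits summed to 5945 TPM and the cathepsins to 1178 TPM; read-based, to 4671 and 844 TPM; on coding transcripts alone, to 2489.9 and 367 TPM; and with Atp6v0c-ps2 added the subunits summed to 2922 TPM. Leaving out either library returns the sums of the other by construction. These were 2610.1 and 2789.7 TPM for the subunits and 519.6 and 549.8 TPM for the cathepsins. The share of Atp6v0a1 was 87.6% read-based, 86.8% on counts and 90.4% on coding transcripts; that of Atp6v0e2 was 86.8% read-based and 93.9% on counts; and that of Atp6v1g2 was 82.1% read-based, 84.0% on counts and 78.8% on coding transcripts. The log2 ratio of Ctsb over Ctsd reversed to -0.72 on coding transcripts and to -0.78 on read-based coding transcripts. Ctsb-202 is left out there by construction. The ratio was 0.63 read-based and 0.80 on counts. Counts are not divided by length, and Ctsb-201 has 4743 bases against 2127 for Ctsd-202, so the 0.80 does not compare levels. The count of genes whose leading transcript differed was 3 to 4 with either library left out. Alternatives on coding transcripts, on Atp6v0c-ps2 and on Ctsb over Ctsd were added after the values were seen. No paired analysis was possible because there is 1 group. The depth limits genes near 1 TPM, and 2 libraries limit every SD.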
